A study of Mus musculus with 3 samples.

Results

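The genes described here encode the proteins of the cytosolic ribosome, together with their expressed paralogues, in female mouse germ cells. Members were the genes whose symbol starts with Rpl or Rps and a digit, or with Rplp, together with Rpsa. Kinases of the Rps6k family, Rps19bp1 and pseudogene symbols were left out. This gave 86 members of 14133 genes in the table. They comprise 77 canonical ribosomal protein genes, of which 46 belong to the large subunit and 31 to the small subunit. A further 8 are paralogues whose symbol ends in l or l1, namely Rpl3l, Rpl6l, Rpl7l1, Rpl10l, Rpl22l1, Rpl36al, Rpl39l and Rps27l. The last member is Rps27rt, a single-exon copy of Rps27. Single-cell RNA was measured in fetal ovaries of C57BL/6 mice in cells sorted for Oct4-EGFP, a fluorescent reporter of germ cells. The ovaries came from E12.5 embryos (embryonic day 12.5), E14.5 embryos or E16.5 embryos. Each stage was 1 library, so stage and library cannot be told apart, no difference between stages has a replicate check, and intervals given here cover counting error only. The labels do not say how many embryos were pooled or which Oct4 fragment drives the reporter.

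The cytosolic ribosome joins amino acids into protein, and each mature particle holds a small subunit that reads the mRNA and a large subunit that forms the peptide bond. Its proteins are made in near-equal numbers from genes spread over the genome, whose mRNAs share a start in a run of pyrimidines, the TOP motif, through which mTOR signalling adjusts their translation. Some genes have a paralogue that can take the place of the canonical protein in the ribosome, and several of these, such as Rpl10l and Rpl39l, are known for their expression in the testis. In the fetal ovary, germ cells go from proliferation into meiotic prophase over the days sampled here.

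The 3 libraries held 4706, 9075 and 5363 cells at E12.5, E14.5 and E16.5. A UMI, or unique molecular identifier, is a tag that marks 1 captured RNA molecule. The median cell had 26691.5, 10960 and 12659 UMIs, so the E12.5 library was the deepest per cell. Between 43 and 72 cell barcodes occurred in each pair of libraries. Clustering without any member gave 8 germ-cell-like clusters, numbered 0 to 3 and 5 to 8, and 1 pregranulosa-like cluster, numbered 4, which was set aside. This left 4678, 8903 and 5312 germ-cell-like cells. At E12.5, a cluster of 635 cells led by Lefty2 and Eif2s3y (cluster 2) had Y-linked UMIs in 91.3% of its cells, against 2.04% in the largest E12.5 cluster, although the labels give every sample as female. Mitochondrial genes took 2.86%, 2.33% and 3.09% of germ-cell-like UMIs.

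2 pairs of copies carry much of what follows, and their coding sequences, without the stop codon, show how far each copy can be told from its parent gene. Sequences are those of the GENCODE vM21 transcripts on GRCm38. Rpl39 lies on the X chromosome and has 3 exons (chrX:37082520-37085402, minus strand), while Rpl39l lies on chromosome 16 and also has 3 exons (chr16:10170226-10174911, plus strand). Capitals mark the 23 of 153 bases at which Rpl39l differs from Rpl39.
Rpl39: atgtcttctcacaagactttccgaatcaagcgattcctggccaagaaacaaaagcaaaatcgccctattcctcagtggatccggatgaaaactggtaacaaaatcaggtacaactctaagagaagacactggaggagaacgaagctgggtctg
Rpl39l: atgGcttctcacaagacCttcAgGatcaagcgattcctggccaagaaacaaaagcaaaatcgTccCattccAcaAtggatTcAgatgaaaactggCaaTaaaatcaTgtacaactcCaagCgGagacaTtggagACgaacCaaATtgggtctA

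Rps27 lies on chromosome 3 and has 4 exons (chr3:90212522-90213651, minus strand), while Rps27l lies on chromosome 9 and has 4 exons (chr9:66946086-66949516, plus strand). Capitals mark the 60 of 252 bases at which Rps27l differs from Rps27.
Rps27: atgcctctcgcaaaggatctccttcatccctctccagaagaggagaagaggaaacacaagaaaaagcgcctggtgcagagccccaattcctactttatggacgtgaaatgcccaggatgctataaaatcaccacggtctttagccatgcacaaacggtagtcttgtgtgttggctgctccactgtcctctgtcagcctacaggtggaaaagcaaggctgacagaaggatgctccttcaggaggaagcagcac
Rps27l: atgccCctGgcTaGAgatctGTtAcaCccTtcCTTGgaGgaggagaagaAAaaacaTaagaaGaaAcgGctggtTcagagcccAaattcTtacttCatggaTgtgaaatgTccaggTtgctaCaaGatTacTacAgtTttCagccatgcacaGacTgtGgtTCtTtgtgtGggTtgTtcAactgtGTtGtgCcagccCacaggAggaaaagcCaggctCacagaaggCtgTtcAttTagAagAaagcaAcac
Rps27rt, in contrast, has the same 252 coding bases as Rps27, and its transcript end matches that of Rps27 over 267 bases, so 3′ reads of this pair cannot be told apart by these bases.

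Ribosomal protein mRNAs took about as large a share of the transcriptome at every stage. Members held 31.0% of germ-cell-like UMIs at E12.5, 33.9% at E14.5 and 33.2% at E16.5. They made up 8, 10 and 9 of the 10 most abundant genes, and 75, 76 and 75 of the 100 most abundant. The canonical members had a median of 3749, 4093 and 3956 UMIs per 1000000 (CPM, the level used below). CPM here counts 3′ ends and is not divided by gene length, so levels of different genes can be compared only as far as their ends were captured alike. Rpl41, the smallest ribosomal protein, was highest at E12.5 with 7546 CPM, followed by Rps18 with 7540.0 CPM. Rps23, a protein of the decoding centre, was highest at E14.5 with 9259 CPM and at E16.5 with 11477 CPM. The lowest canonical member was Rpl22 at E12.5, with 1573 CPM, and Rpl5, which binds the 5S rRNA, at E14.5 and E16.5, with 1425 and 1164 CPM.

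The share varied over cells by more than counting alone gives. With every cell thinned to 5000 UMIs, which left out 0, 11 and 25 shallower cells, the median cell gave members 30.9%, 33.5% and 33.1% of its UMIs. The standard deviation over cells was 2.31, 3.18 and 3.45 percentage points, against 0.654, 0.668 and 0.665 from counting alone. Unthinned medians were 30.9%, 33.4% and 33.1%. Across E14.5 cells the share went with depth (Pearson r = 0.43 with log depth over 8892 cells of 1 library), less so at E12.5 (0.12) and E16.5 (0.20). By cluster, the share was highest in cluster 1 at E14.5 (35.2%, led by Dlx3, Cdh15 and Rec8) and lowest in cluster 3 at E12.5 (66 cells, interval 28.9% to 29.1%). In pregranulosa-like cells members held 28.4%, 29.7% and 27.0% of UMIs.

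Between E12.5 and E14.5 few canonical members differed by 1.5-fold, 2 being higher (Rpl36a and Rps15a) and 2 lower (Rplp0 and Rpl38), and the other members past it were copies. At least 1.5-fold higher at E14.5 were 4 members (Rpl3l, Rpl36a, Rps15a and Rps27rt), 4.65% of the 86, when 41.7% of all genes were. At least 1.5-fold lower were 6 members (Rpl39l, Rplp0, Rpl38, Rpl10l, Rpl7l1 and Rpl6l), 6.98% of the 86, when 24.3% of all genes were. At 2-fold, 1 member was higher and 2 were lower, against 31.3% and 16.3% of all genes. The median log2 ratio of the 86 members was 0.12, below the median of 0.30 over all genes and above the median of -0.32 over the 104 other genes of at least 1000 CPM.

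Scaling sets the zero of these ratios. Median-of-ratios scaling moved the median of all genes by -0.33 and TMM (the trimmed mean of M values) by -0.27 for E14.5 over E12.5, and the members' median then became -0.21 and -0.15. Of the 4 higher members, 1 (Rpl3l) stayed at least 1.5-fold higher under either scaling, and Rpl36a, Rps15a and Rps27rt did not. The 6 lower members stayed so, and the members at least 1.5-fold lower became 14 and 13, Rpl35, Rps13 and Rps25 among them. Each scaling shifts every gene of a comparison alike, so the distance of the members' median from that of all genes stays -0.19 by construction. Ratios below are of CPM, and those relative to the all-gene median are given beside the largest.

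Among the stalk proteins, which recruit elongation factors to the large subunit, 1 gene stood apart. Rplp0, the base of the stalk, had 4949 CPM at E12.5, 2303 at E14.5 and 2319 at E16.5. Its partners Rplp1 and Rplp2 had 5715, 7422 and 7559 CPM and 5800, 5489 and 5377 CPM. The E14.5 level of Rplp0 was thus 2.15-fold lower than at E12.5 (log2 ratio -1.10, interval -1.11 to -1.10, and -1.40 relative to the all-gene median). In pregranulosa-like cells Rplp0 differed the same way by less, with a log2 ratio of -0.43 (interval -0.51 to -0.36). Of the other large-subunit proteins, Rpl38 went from 2717 to 1494 CPM and then to 1788 CPM.

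Between E14.5 and E16.5 the members that differed most included several small-subunit genes, in both directions. At least 1.5-fold lower at E16.5 were 8 members, among them Rps2, Rps3a1, Rps3, Rpl8, Rpl18 and Rpl24, when 25.7% of all genes were. At least 1.5-fold higher were 4 members, Rpl6l, Rpl10l, Rpl35 and Rps20, when 27.5% of all genes were. At 2-fold, 2 members were higher and 2 lower, against 16.3% and 17.5% of all genes. The 2 higher were scarce copies, Rpl6l with 7.28 CPM at E14.5 and 16.0 at E16.5, and Rpl10l with 16.9 and 34.1 CPM. Some pseudogene symbols that were left out differed alike, Rpl10-ps3 having 136.8 and 293.5 CPM and Rpl23a-ps3 235.3 and 501.2 CPM. Rps2-ps6, at 4.49 and 3.73 CPM, did not. The members' median log2 ratio was -0.02, against 0.06 over all genes and -0.03 over the 87 other genes of at least 1000 CPM. Since this comparison and the first share the E14.5 library, a low or high E14.5 value enters both with opposite sign.

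Rps2, which lies near the mRNA entry channel, had 4981 CPM at E12.5, 5394 at E14.5 and 1951 at E16.5. It was therefore 2.76-fold lower at E16.5 than at E14.5 (log2 ratio -1.47, interval -1.48 to -1.46). Rps3a1 had 3449, 3774 and 1891 CPM. Both were at a like level at the first stages and low only at E16.5. In the opposite direction, Rps20, a protein of the small-subunit head, had 3303, 3346 and 6148 CPM. Rpl35, which sits at the exit of the peptide tunnel, had 2978, 1986 and 3876 CPM, so its E14.5 value was the low one. Among members of at least 100 CPM, Rps24, Rps27, Rps29 and Rps28 followed Rpl35 and Rps20, with log2 ratios of 0.54, 0.53, 0.50 and 0.49.

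Over the whole interval, E16.5 against E12.5, members at least 1.5-fold higher numbered 9 (45.4% of all genes were) and those at least 1.5-fold lower 12 (29.5% of all genes were). At 2-fold, 1 was higher and 4 were lower, against 37.0% and 22.7% of all genes. The 9 were Rpl3l, Rps27rt, Rps20, Rps28, Rps15a, Rps27, Rps23, Rpl36a and Rps21. The 12 included Rps2, Rpl39l, Rplp0, Rps3a1, Rpl24, Rps3, Rpl8, Rps13, Rpl5 and Rpl38. The plot of ratios by comparison draws each member, and of all genes the median alone. For E14.5 over E12.5, the members' lower and upper quartiles were -0.12 and 0.30. Those of all genes, which are not drawn, were -0.56 and 1.34. For E16.5 over E12.5, the median of the members was 0.12, below that of all genes at 0.39. It lay above the median of -0.27 over the 111 other genes of at least 1000 CPM. The members' median became -0.26 with median-of-ratios scaling and -0.24 with TMM. Of the 9 higher members, 1 (Rpl3l) stayed at least 1.5-fold higher with median-of-ratios scaling, and 2 (with Rps27rt) with TMM, while all 12 lower members stayed so under both. As a ratio to the UMIs of other genes, 13 members were higher and 10 lower, without Rpl18 and Rpl38.

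**Figure D1:**
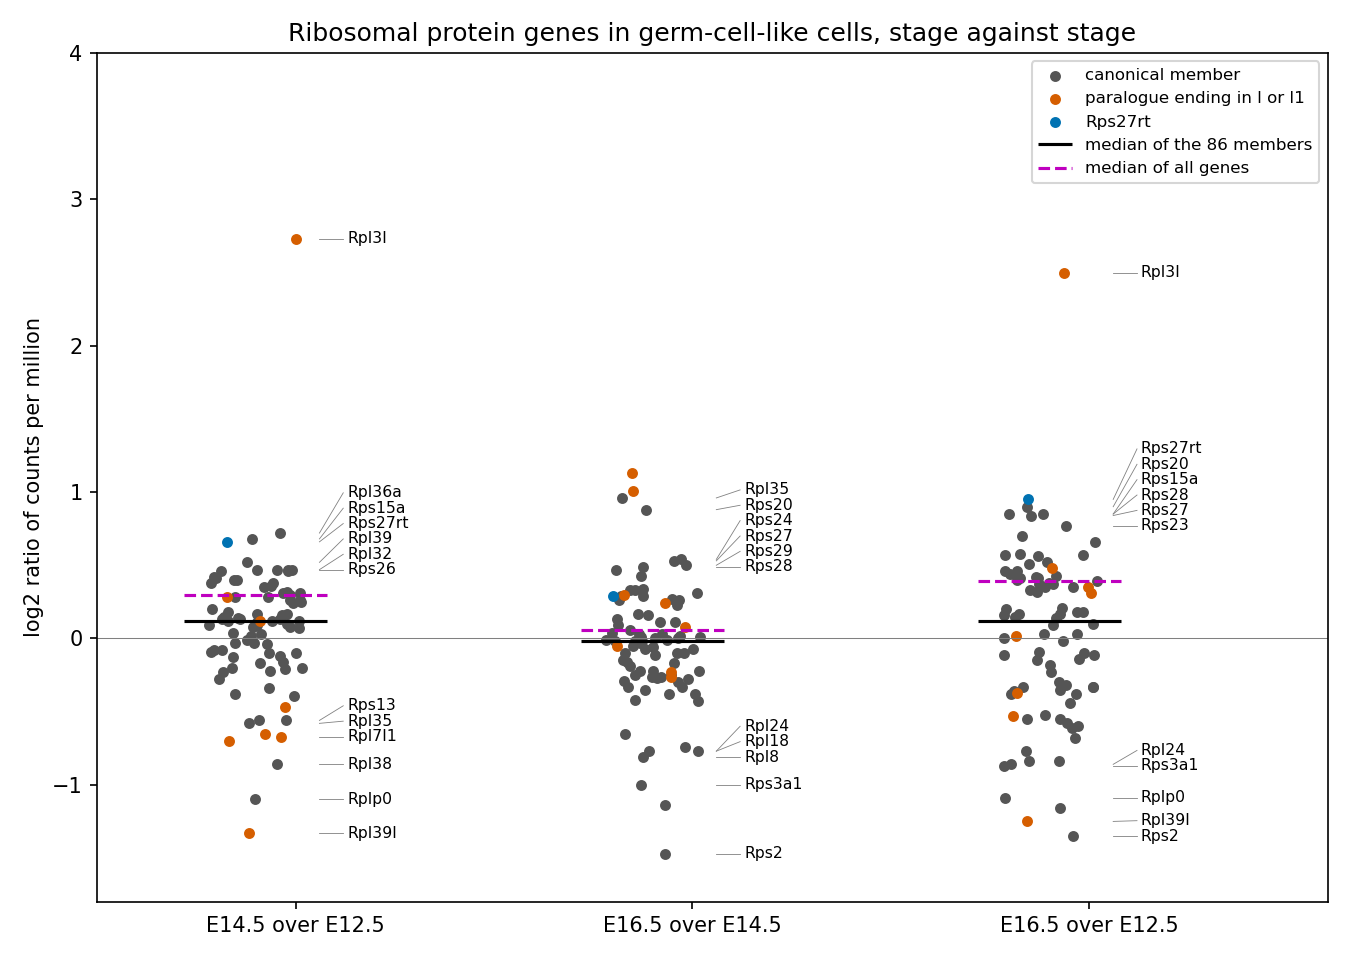
Log2 ratio of CPM for each of the 86 members (points) in each of the 3 comparisons (columns), in germ-cell-like cells, 1 library per stage. Black lines mark the members' median (0.12, -0.02 and 0.12), dashed lines that of all genes (0.30, 0.06 and 0.39). Labels name members from among the 6 highest and 6 lowest of at least 100 CPM, and Rpl3l, which has under 4 CPM.

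The paralogues fall into abundant and scarce copies. Rpl22l1, a paralogue of the RNA-binding protein Rpl22, matched its parent, with 51.1%, 52.4% and 53.6% of the pair's UMIs at E12.5, E14.5 and E16.5. Rps27l, known as a p53 target, held 35.7%, 35.2% and 23.9% of its pair. Rpl36al, an autosomal copy of the X-linked Rpl36a, held 29.5%, 15.4% and 15.1%. The scarce copies were Rpl7l1 (4.04%, 2.43% and 3.19%), Rpl10l (0.985%, 0.596% and 0.956%) and Rpl6l (0.282%, 0.207% and 0.566%). Rpl3l, known from striated muscle, had 67, 364 and 209 UMIs in all germ-cell-like cells of a stage, or 0.0136%, 0.118% and 0.113% of its pair. Rps27rt held 11.8%, 14.6% and 12.5% beside Rps27, a split that the identical coding sequence leaves uncertain. The same uncertainty enters the level of Rps27, and so every Rps27l share given here.

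Of the 8 paralogues, Rpl39l had the share that was lower by the largest factor at E14.5 than at E12.5. It held 8.25% of the Rpl39 pair at E12.5 (interval 8.18% to 8.33%), 2.42% at E14.5 (2.39% to 2.46%) and 2.59% at E16.5 (2.54% to 2.64%). Its own level went from 343.3 CPM to 136.2 and 144.2 CPM, a 2.52-fold difference between the first stages (log2 ratio -1.33, and -1.63 relative to the all-gene median). Rpl39 went the other way, from 3817 to 5482 and 5428 CPM, so both genes contributed to the share. Rpl36al and Rpl36a did likewise, the copy having 1219.6, 878 and 845.3 CPM and its parent 2916, 4815 and 4742 CPM.

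Pregranulosa-like cells of the same libraries give a comparison across cell types. They are few (25, 166 and 22 cells). Of 24 germ cell markers 20 had a UMI in at least 10% of them, beside all 14 pregranulosa markers, so germ cell RNA was counted in them. Rps27l held 18.9%, 13.8% and 13.8% of its pair there, below the germ-cell-like values at each stage with no overlap of intervals. Rpl39l was also lower, at 2.21%, 0.655% and 1.10%, and Rpl22l1 higher, at 59.8%, 60.6% and 63.3%. Rpl10l had 4 UMIs in pregranulosa-like cells at each stage. The lower share of Rpl36al after E12.5 was seen in both cell types, as pregranulosa-like cells gave 24.3%, 17.7% and 16.9%.

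**Figure D2:**
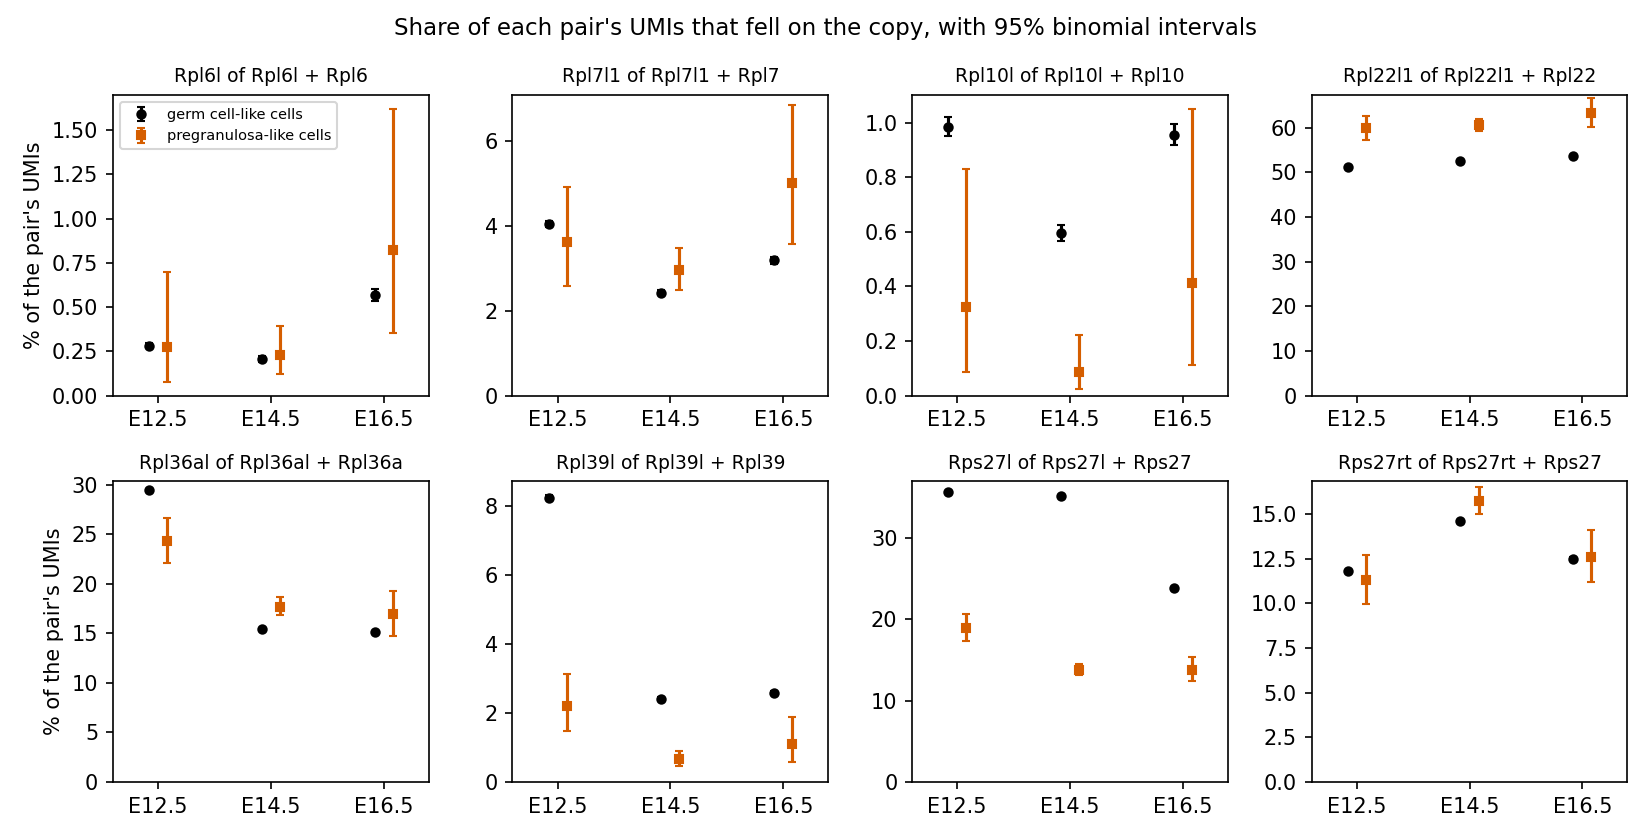
Percent of each pair's UMIs that fell on the copy, by stage, in germ-cell-like cells (circles) and pregranulosa-like cells (squares), with exact 95% binomial intervals, which cover counting error only. Rps27l and Rpl39l lie higher in germ-cell-like than in pregranulosa-like cells at every stage and Rpl22l1 lower; each vertical axis starts at 0 and has its own scale.

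Rps27l itself had 1924, 2329 and 1951 CPM and its parent Rps27 had 3469, 4294 and 6218 CPM, so a lower Rps27l and a higher Rps27 both entered the lower share at E16.5 than at E14.5. That share was uneven over clusters. At E14.5 it lay between 33.8% and 36.2% in every germ-cell-like cluster. At E16.5 it was 20.7% in cluster 8 (2910 cells) and 27.5% in cluster 7 (2064 cells, led by Pcdh17 and Fbxo47, with Prdm9 among its leading genes), and it was 29.3%, 32.4% and 27.0% in the E16.5 cells of clusters 1, 5 and 6. For Rpl39l, the E14.5 and E16.5 shares stayed between 2.22% and 2.93% in every germ-cell-like cluster, while the E12.5 clusters 0, 2 and 3 gave 7.69%, 13.1% and 11.6%.

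The 4 X-linked canonical genes, Rpl10, Rpl36a, Rpl39 and Rps4x, were set apart from the autosomal ones within E12.5. Rpl39 had 2549.9 CPM in cluster 2, the cluster with Y-linked UMIs, and 4039.7 CPM in cluster 0, the largest. Rps4x had 2912 and 4609 CPM, Rpl36a 2369 and 3008 CPM, and Rpl10 2393 and 2830.3 CPM. Their log2 ratios, cluster 2 over cluster 0, were -0.66, -0.66, -0.34 and -0.24. The 73 autosomal canonical members had a median of 0.00 and ranged from -0.10 to 0.21, so all 4 X-linked members lay below every autosomal one. Other X-linked genes had a median of -0.34 (462 genes) and other autosomal genes of -0.03 (11852 genes). The clusters were drawn from other genes, X-linked and Y-linked ones included, so this is a description of cells that differ in those genes.

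**Figure D3:**
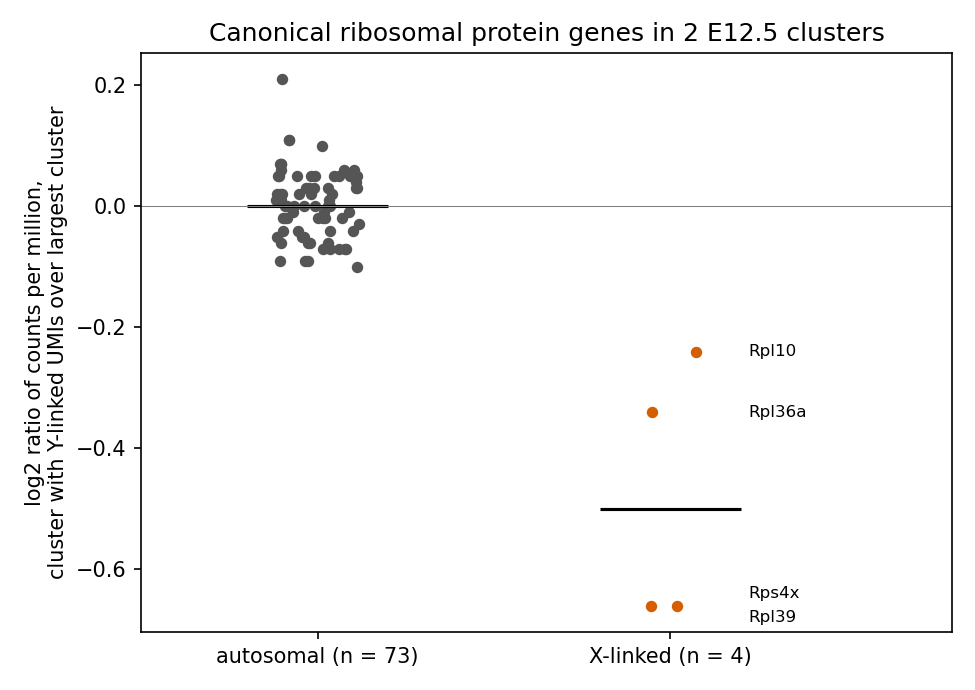
Log2 ratio of CPM between the E12.5 cluster with Y-linked UMIs (635 cells) and the largest E12.5 cluster (3970 cells), for 73 autosomal and 4 X-linked canonical members (points), with medians as lines. The autosomal members lie between -0.10 and 0.21 and the X-linked ones between -0.66 and -0.24.

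The 13.1% of Rpl39l in cluster 2 against 7.69% in cluster 0 goes with that lower Rpl39 level, as Rpl39l itself had a log2 ratio of 0.19. Rpl36al likewise held 34.2% of its pair in cluster 2 and 28.8% in cluster 0. Leaving cluster 2 out, the E12.5 shares were 7.71% for Rpl39l and 28.8% for Rpl36al, still above those of E14.5. Over the stages, the X-linked canonical members had a median log2 ratio of 0.45 for E14.5 over E12.5, against 0.12 for the autosomal ones, and -0.02 against -0.05 for E16.5 over E14.5. Other X-linked genes had medians of 0.80 and -0.04 (493 genes), and other autosomal genes of 0.28 and 0.03 (12272 genes). Within the 4, Rpl36a and Rpl39 were highest, at 0.72 and 0.52, and Rpl10 had 0.03. The E12.5 sums include cluster 2, where X-linked genes were lower, which raises these X-linked ratios over E12.5. Medians of the X-linked genes without cluster 2 were not taken.

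Rps2 and Rps3a1 also differed between clusters of 1 library, the highest E16.5 cluster lying 3.98-fold and 2.35-fold above the lowest. At E14.5 Rps2 had 6274 CPM in cluster 1, 5444 in cluster 6 (led by Stra8, which germ cells need to enter meiosis), 3306 in cluster 5 and 2566 in cluster 7. At E16.5 it had 6328, 5408, 3477 and 1749 CPM in the same clusters, and 1588 in cluster 8. The level thus went with the cluster, and the stage-wide difference of -1.47 shrank to log2 ratios of 0.01, -0.01 and 0.07 within clusters 1, 6 and 5, and to -0.55 within cluster 7. Clusters 7 and 8 hold 2064 and 2910 of the 5312 germ-cell-like cells at E16.5, and cluster 7 only 390 at E14.5. Rps3a1 gave -0.16, -0.13, -0.09 and -0.30 within clusters 1, 6, 5 and 7, against -1.0 for the whole stage.

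Rps20 went with the cluster in the opposite direction. Its E16.5 level was 3611 CPM in cluster 1 and 7318 in cluster 8, and it differed between stages by log2 ratios of 0.17, 0.13, 0.04 and 0.38 within clusters 1, 6, 5 and 7. The E16.5 cells of clusters 1, 5 and 6 number 91, 75 and 172, with median depths of 20029, 11309 and 16313 UMIs against 12659 in their library. None of the 91, 1 of the 75 and 5 of the 172 share a barcode with an E14.5 cell. Whether some are doublets was not tested beyond the doublet caller, which marked 3, 6 and 29 cells per library.

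Rpl35 behaved otherwise. Its E16.5 level was above its E14.5 level by log2 ratios of 1.02, 0.90, 0.94 and 0.96 within clusters 1, 5, 6 and 7, and by 0.80 in pregranulosa-like cells (interval 0.70 to 0.91). In each of these it was the highest of the 77 canonical members. At E14.5 its level was below that of E12.5 in pregranulosa-like cells too, by a log2 ratio of -0.49 (interval -0.60 to -0.39). The Rpl35 ratio for E16.5 over E14.5 thus lay between 0.80 and 1.02 in these 5 clusters, against 0.96 over all germ-cell-like cells. Cluster 8 had only 6 cells at E14.5 and gave no ratio. Germ cell RNA counted in the pregranulosa-like cells adds to their value, and its part was not tested. Rps24 came second within clusters 5, 6, 7 and the pregranulosa-like cells, with 0.39, 0.38, 0.53 and 0.50. Over the canonical members, the median absolute log2 ratio for E16.5 over E14.5 was 0.25 in all germ-cell-like cells and 0.11, 0.09, 0.09 and 0.12 within clusters 1, 5, 6 and 7.

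**Figure D4:**
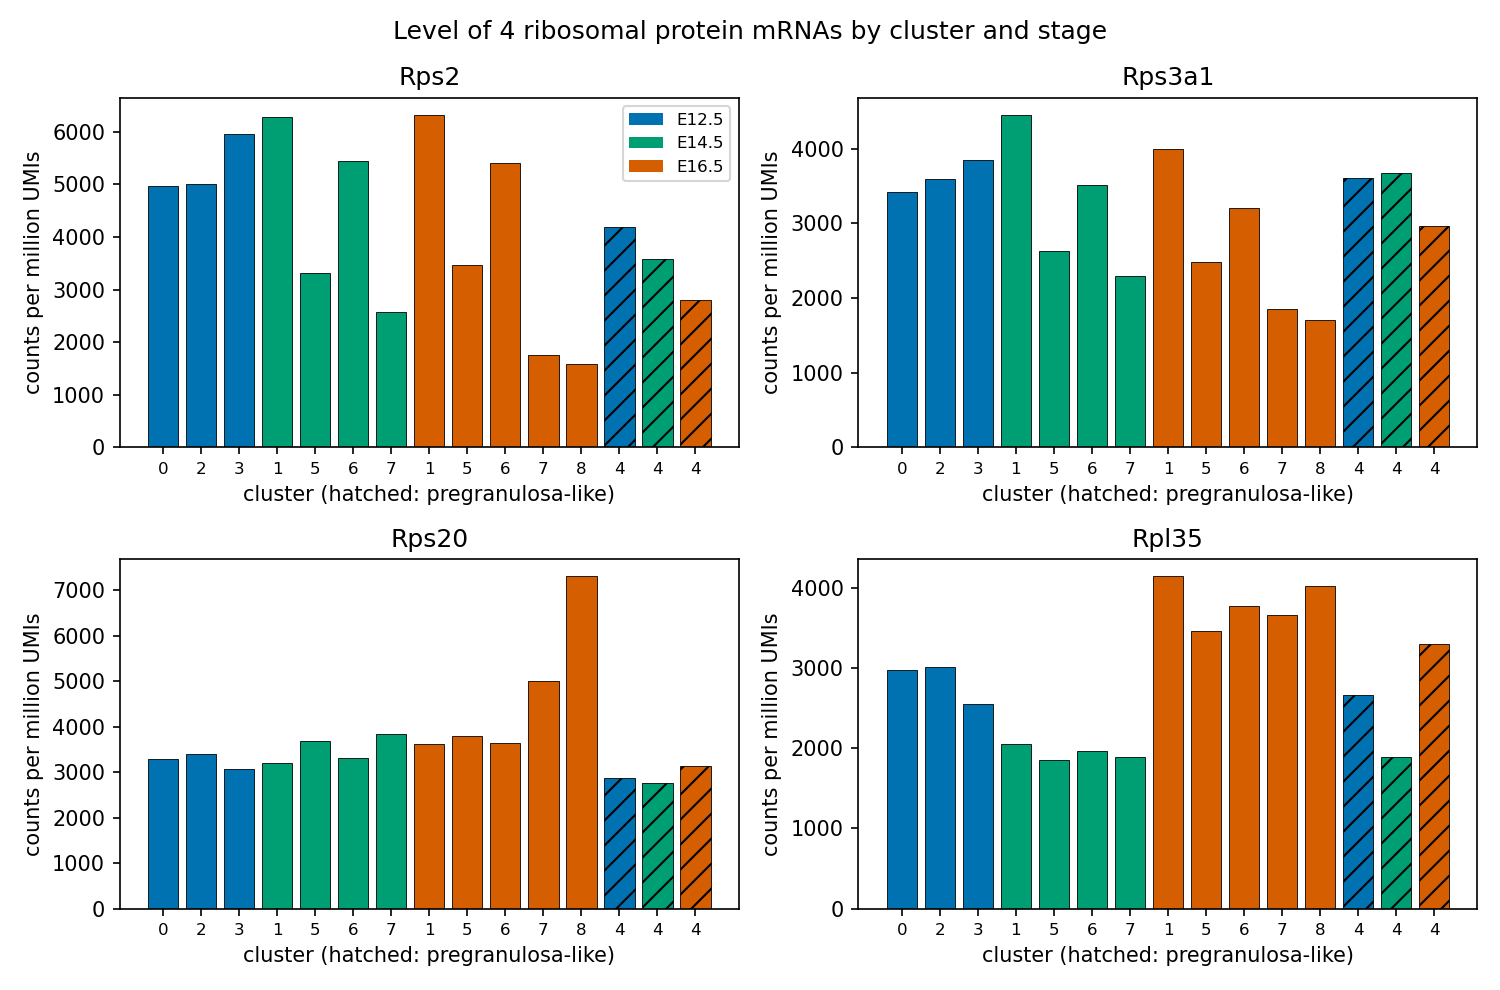
CPM of Rps2, Rps3a1, Rps20 and Rpl35 in each cluster (numbers) of each stage (colours), with pregranulosa-like cells hatched; bars are sums over the cells of a cluster and start at 0. Rps2 and Rps3a1 are lowest in cluster 7 among the E14.5 germ-cell-like clusters and in clusters 7 and 8 among those of E16.5, while Rpl35 lies between 1859.6 and 2048 in every E14.5 cluster drawn and between 3299 and 4151 in every E16.5 cluster drawn.

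Several of these members also varied most from cell to cell. The excess CV is the spread over cells, in percent of the mean, that remains after counting noise is removed at 5000 UMIs per cell. Members of at least 1000 CPM had a median excess CV of 10.3%, 14.2% and 16.6% at E12.5, E14.5 and E16.5, against 16.8%, 24.2% and 27.7% for other genes of that level. At E12.5 the largest were Rpl39l (43.8%), Rpl7l1 (27.5%) and Rpl36a (26.4%), and the next was Rpl39 (26.0%). Among the largest at E14.5 were Rps2 (31.5%), Rpl22l1 (30.5%) and Rps3a1 (24.9%), and at E16.5 Rps2 (64.6%), Rpl39l (39.2%) and Rps3a1 (31.2%). Values for Rpl39l and Rpl7l1 rest on means of 0.54 to 1.7 UMIs per cell and are imprecise.

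The smallest values belonged to Rpl19 (5.15%), Rps3 and Rps9 at E12.5, to Rpl14 (7.60%), Rps10 and Rps7 at E14.5, and to Rplp1 (11.5%), Rplp2 and Rps10 at E16.5. Part of the spread lay between clusters. Within the largest cluster of each stage alone, Rps2 had an excess CV of 12.4%, 14.4% and 30.5%. Rps3a1 had 9.52% at E14.5 and 14.1% at E16.5 in those clusters. Rpl36a kept 26.9% in cluster 0 at E12.5, where cluster 2 is absent, and Rpl39 had 21.8% there. Rpl22l1 kept 27.9%, 27.5% and 24.0% within the largest clusters.

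Among the canonical members, coding length went with the later difference. The 26 canonical genes of shortest coding sequence (75 to 405 bases) took 9.90%, 11.2% and 12.8% of UMIs over the stages, and the 25 longest (582 to 1257 bases) took 9.86%, 10.3% and 8.67%. Spearman's rho between coding length and log2 ratio over the 77 genes was -0.16 for E14.5 over E12.5 and -0.48 for E16.5 over E14.5. Among 1293 other genes of at least 100 CPM whose coding sequence was no longer than the longest member's, it was -0.11 and 0.03. With longer genes included (1919 genes), it was 0.08 and 0.21, opposite in sign to the members. For the 77 genes, transcript length gave a rho of -0.09 and -0.12, and the number of exons -0.14 and -0.35. These are descriptions across genes of the same libraries, and genes are not independent replicates. Within clusters 1, 5, 6 and 7, rho of coding length for E16.5 over E14.5 was -0.40, -0.22, -0.41 and -0.65, and in pregranulosa-like cells it was -0.40. The relation thus appeared also in somatic cells of the same libraries, and the part that the library, or germ cell RNA in those cells, had in it was not tested.

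**Figure D5:**
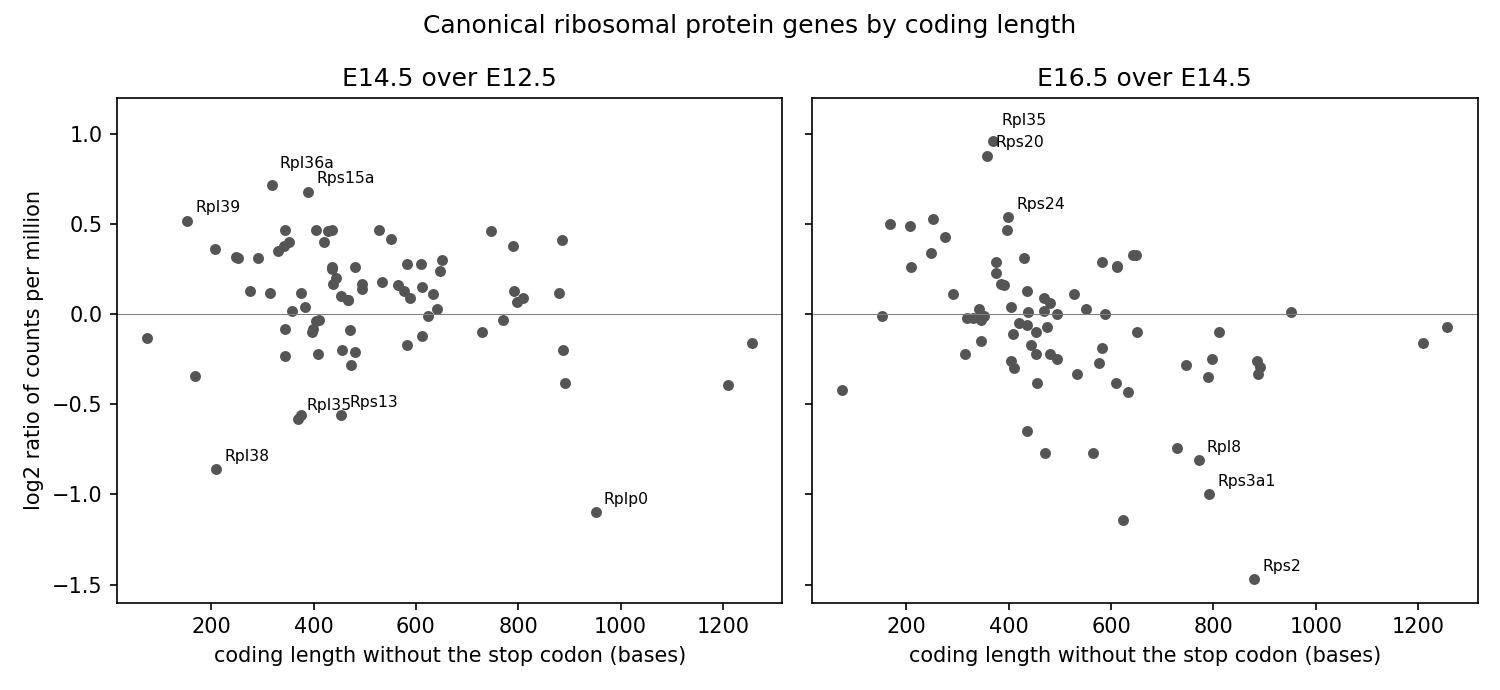
Log2 ratio of CPM against coding length in bases for the 77 canonical members (points), for E14.5 over E12.5 (left) and E16.5 over E14.5 (right). On the right, Rpl35, Rps20 and Rps24 lie high and short, and Rps2 and Rps3a1 low and longer (Spearman's rho -0.48).

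Host genes of small nucleolar RNAs, which guide rRNA modification, had lower medians than the other canonical genes, most so for E16.5 over E12.5. The 30 hosts had median log2 ratios of 0.09, -0.11 and -0.11 in the 3 comparisons, and the 47 other canonical genes 0.13, -0.01 and 0.17. Many members have processed pseudogenes. Of the 77 canonical genes, 46 had at least 1 annotated pseudogene that was at least 95% identical over the transcript end, and Rps2 had 41 and Rps3a1 7. How reads that match several places were counted is not given in the sources used here, so levels of these genes are uncertain. Rpl8 and Rps3, which were lower at E16.5 as well, had none, and Spearman's rho between the number of pseudogenes and the log2 ratio for E16.5 over E14.5 was -0.14.

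The letters at the annotated transcript start show whether a run of at least 8 pyrimidines lies there. Shorter runs, such as the 6 of Rps2, are not marked, and the start used in these cells was not measured. A line without capitals therefore does not show that the mRNA lacks a TOP start. Lines are printed for members that were lower (Rps2, Rps3a1, Rpl18, Rpl24) or higher (Rpl35, Rps27) at E16.5 than at E14.5. They were chosen after their values were seen. Each line gives 15 bases before and 15 from the start that RefSeq annotates on GRCm38.p6, with capitals for a run of at least 8 pyrimidines that reaches within 10 bases of the start.
Rps2 (chr17:24720048-24720077, plus strand): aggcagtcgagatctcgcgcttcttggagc
Rps3a1 (chr3:86142654-86142683, minus strand): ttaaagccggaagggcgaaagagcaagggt
Rpl18 (chr7:45718056-45718085, plus strand): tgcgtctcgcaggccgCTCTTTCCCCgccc
Rpl24 (chr16:55966260-55966289, plus strand): agaaagctgttgctaggaaacagactgggc
Rpl35 (chr2:39005117-39005146, minus strand): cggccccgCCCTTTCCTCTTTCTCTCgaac
Rps27 (chr3:90213634-90213663, minus strand): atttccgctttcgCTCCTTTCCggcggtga
Of the 4 lower members printed Rpl18 has such a run, and Rpl35 and Rps27 both have one. Among members not printed, Rps28, which was higher, has a longest run of 4. Rps24, also higher, has 9 at an annotated start and 2 at another, and Rps3, which was lower, has 2. The printed members were picked, so they do not show a relation of the run with the ratio, and medians over the canonical members are given below.

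RefSeq promoters, from 250 bases before to 50 after the start, matched 65 of the 86 members. A run of at least 8 pyrimidines at the start was found in 44.6% of them and in 15.8% of all 27025 genes with a promoter. CCGGAAG, searched on both strands, was found in 40.0% against 9.93%, AAGATGG in 15.4% against 7.28%, and TATAAA in 10.8% against 15.7%. CCGGAAG and AAGATGG can share their letters AAG. These are matches of letters and not sites. Canonical members with the pyrimidine run (27) had median log2 ratios of 0.11, -0.02 and 0.14 in the 3 comparisons, and those without (30) 0.16, -0.08 and 0.09. Those with CCGGAAG (24) had 0.15, -0.01 and 0.15, and those without (33) 0.13, -0.07 and 0.03.

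Some genes encode parts of the ribosome but fall outside the symbol rule. Fau, a ubiquitin-like protein fused to Rps30, had 2679, 2366 and 2285 CPM, and Gnb2l1, the scaffold protein Rack1, had 1746, 1804 and 1354 CPM.

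Other parts of the translation machinery had lower medians than the members between the first stages. The 17 other TOP mRNAs had a median log2 ratio of -0.37 for E14.5 over E12.5, with 4 at least 1.5-fold lower and 0 higher, when 24.3% of all genes were lower and 41.7% higher, the shares against which the counts of the next lists are also to be read. In that list Hnrnpa1, a splicing factor, was lowest, at -1.97, and Eef1a1, which brings tRNAs to the ribosome, highest, at 0.35. The 40 initiation factors had a median of -0.37, with 13 lower and 5 higher, and Eif4a1, the helicase of initiation, had 1568, 543.6 and 316.6 CPM. The 15 measured elongation and release factors had a median of 0.07, with 5 lower and 3 higher. Chaperones and import factors of ribosomal proteins had a median of -0.60, with 8 of 14 lower and 1 higher. The 76 mitochondrial ribosomal proteins had a median of -0.08, with 12 lower and 7 higher.

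For E16.5 over E14.5, the medians of these lists lay between -0.24 for elongation and release factors and 0.08 for initiation factors and chaperones, and that of the other TOP mRNAs was -0.17. Among 19 regulators of mTOR and TOP mRNAs, the median was -0.03 for E14.5 over E12.5 and -0.87 for E16.5 over E12.5, with 10 at least 1.5-fold lower and 4 higher in the latter, when 29.5% and 45.4% of all genes were. Mycn, a transcription factor that drives ribosome production, had 116 CPM at E12.5, 32.6 at E14.5 and 5.57 at E16.5. Eif4ebp1, a repressor of cap-dependent initiation downstream of mTOR, had 323.1, 60.5 and 22.7 CPM. At E16.5 they were 20.8-fold and 14.2-fold lower than at E12.5, the largest factors in the list. In the other direction, Larp4 had 30.9, 55.4 and 57.6 CPM and was 1.86-fold higher at E16.5 than at E12.5. That was the largest such factor among genes of the list with at least 50 CPM in the higher stage. Below that level, Tsc1 had 18.1, 40.8 and 49.3 CPM and was 2.73-fold higher. The ribosomal protein share was 31.0% and 33.2% at those stages, and a relation of these genes to it was not tested.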

How the data were processed

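The authors deposited 1 table of natural log values, ln(1 + UMIs x 10000 / total UMIs of the cell), for 14133 genes and 19144 cells, whose columns name the stage. Libraries were made with a 10x Genomics 3′ kit, per the labels' protocols. Cell Ranger 2.0.0, FastQC and mm10 were used, per the submitters' processing notes, and the sources used here give no further settings. Undoing the natural log gave whole UMIs (100.0% of 68606039 non-zero values within 0.01), which were summed per stage and divided by the total (CPM, UMIs per 1000000).

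Members and gene lists were chosen with earlier results of these data known. Cells were clustered with Scanpy 1.11.5 (2000 variable genes, none a member, 30 components, 15 neighbours, Leiden resolution 0.5) after Scrublet doublets were removed. Clusters were named from marker genes present in at least 10% of cells. Intervals are exact Poisson or binomial 95% intervals. A gene needed 10 UMIs over the sums, and a ratio of 1.5-fold or 2-fold marks a difference. No test was run, as each stage is 1 library. Named members are the paralogues, the X-linked genes, the most abundant, the 6 highest and 6 lowest ratios of at least 100 CPM per comparison, and the extremes of cell-to-cell spread. Other members are past 1.5-fold or mark the lowest level. Other genes are the most abundant of their list, or the most different of those with at least 50 CPM in the higher stage. The within-cluster ratios, the E12.5 cluster comparison, the promoter split and the values for canonical members alone were added after seeing the data. Pseudogene copies were found with BLAST 2.17.0. The ratio and spread code was checked on simulated data. Alternatives are in the closing section. Some genes past these thresholds are not reported here. Proteins were not analysed here.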

Additional observations from a re-analysis of the deposited data

How the results depend on the processing

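For E14.5 over E12.5, E16.5 over E14.5 and E16.5 over E12.5, the members' median log2 ratio was 0.12, -0.02 and 0.12. It was -0.21, -0.07 and -0.26 with median-of-ratios scaling, -0.15, -0.12 and -0.24 with TMM, and 0.18, -0.04 and 0.17 as a ratio to the UMIs of other genes. Members at least 1.5-fold higher and lower became 1 and 14 (median of ratios) or 1 and 13 (TMM) for the first comparison, and 1 and 29 or 2 and 29 for the last. As a ratio to the UMIs of other genes they were 13 and 10 for the last, against 9 and 12. For E16.5 over E14.5 the 4 higher and 8 lower members were the same genes under both scalings. Thinned cells gave medians of 0.09 and -0.01 for the first and second comparison, and the mean over cells gave 0.08 for the first. A minimum of 100 CPM left 2 higher members for E16.5 over E14.5 and a median of 0.09 for E16.5 over E12.5. Canonical members alone, added after seeing the data, gave medians of -0.03 and 0.10 for the second and last comparison, 2 higher and 2 lower members for the first and 2 higher for the second.

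The share of UMIs was 31.0%, 33.9% and 33.2%, and with all clusters 31.0%, 33.9% and 33.2%. It was 31.0%, 33.5% and 33.0% in thinned cells, the same as a mean over cells, and 31.1% at E12.5 without cluster 2. Of 90 paralogue shares under alternatives, 73 stayed within the counting interval, and the largest ratio to the main value was 1.09. No paired analysis was possible because each stage is 1 library. Spread between replicates could not be measured with 1 library per stage, and counts limit the values for Rpl3l and the pregranulosa-like cells.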
